A study of Mus musculus with 4 samples.

Results

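The lysosomal genes described here are 64 genes, read by 120 probe sets, out of 12393 genes on the arrays. They are 45 genes of lysosomal hydrolases, membrane proteins and sorting or regulatory proteins, chosen by name, and 19 genes whose symbol starts with Atp6v, which encode the vacuolar proton pump (V-ATPase). Arsb and Cd63 were also named but are not analysed here, since no probe set carried either as its single gene. Of the 64 genes, 56 reached the signal level set for testing (23.9 array units) and 8 did not.

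The RNA came from mouse embryonic stem (ES) cells of the established line R1, with 1 Affymetrix array for each of 4 samples. The Brg1 knockdown group has 2 samples, in which a lentiviral shRNA (short hairpin RNA) targeted Brg1. Brg1, the product of Smarca4, is a catalytic ATPase of SWI/SNF, which remodels chromatin. The control group has 2 samples, in which the lentiviral shRNA targeted GLUT4, a glucose transporter encoded by Slc2a4. Cells of both groups were taken 67 h after infection, per the labels. Both groups thus carry a virus and a hairpin, and uninfected cells were not analysed here. The labels do not say whether the duplicates came from separate cultures, so the p-values measure only the spread between these samples.

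Lysosomes degrade proteins, glycans and lipids with hydrolases that work at acid pH. The V-ATPase provides that pH: its V1 sector splits ATP in the cytosol and its V0 sector carries protons through the membrane. TFEB, a transcription factor, binds an E-box called the CLEAR element in the promoters of many lysosomal and V-ATPase genes.

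Promoter sequences from RefSeq (GRCm38.p6) were matched for 52 of the 64 genes, with 59 windows of 300 bases, from 250 before to 50 after each annotated start. The other genes are Asah1, Atp6v0a2, Atp6v1b2, Atp6v1c1, Atp6v1g1, Atp6v1h, Ctsb, Ctsh, Galns, Laptm4b, M6pr and Npc1. The stretches below run from 150 bases before to 25 bases after the start of 6 genes that rose in the knockdown. They are printed to show which of these 6 carry an E-box form searched here, and other E-box forms are left unmarked. In Atp6v0d1 and Gaa, capitals mark TCACGTG, the core of the CLEAR element, on either strand. Those in the Tpp1 stretch mark a related E-box, TCACATG. For Manba, Man2b1 and Cd68 the capitals are the GC box, GGGCGG, on either strand.
Manba, chr3:135485461-135485635, plus strand: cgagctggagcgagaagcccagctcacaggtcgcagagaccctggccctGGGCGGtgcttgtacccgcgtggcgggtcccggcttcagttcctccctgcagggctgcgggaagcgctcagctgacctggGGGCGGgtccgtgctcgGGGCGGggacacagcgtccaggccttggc
Man2b1, chr8:85083119-85083293, plus strand: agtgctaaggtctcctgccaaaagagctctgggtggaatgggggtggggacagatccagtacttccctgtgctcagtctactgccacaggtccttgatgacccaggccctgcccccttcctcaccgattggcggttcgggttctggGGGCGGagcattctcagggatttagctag
Cd68, chr11:69666146-69666320, minus strand: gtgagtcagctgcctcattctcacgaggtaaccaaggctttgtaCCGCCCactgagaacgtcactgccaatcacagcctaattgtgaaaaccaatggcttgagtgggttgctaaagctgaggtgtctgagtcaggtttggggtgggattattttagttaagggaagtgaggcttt
Atp6v0d1, chr8:105566040-105566214, minus strand: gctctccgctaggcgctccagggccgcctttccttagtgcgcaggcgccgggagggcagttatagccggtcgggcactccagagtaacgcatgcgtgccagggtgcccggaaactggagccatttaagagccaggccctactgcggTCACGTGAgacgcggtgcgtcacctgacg
Gaa, chr11:119267813-119267987, plus strand: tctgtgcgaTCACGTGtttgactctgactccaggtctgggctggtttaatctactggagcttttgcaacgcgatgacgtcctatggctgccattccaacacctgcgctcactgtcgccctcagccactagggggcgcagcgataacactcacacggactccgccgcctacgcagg
Tpp1, chr7:105752211-105752385, minus strand: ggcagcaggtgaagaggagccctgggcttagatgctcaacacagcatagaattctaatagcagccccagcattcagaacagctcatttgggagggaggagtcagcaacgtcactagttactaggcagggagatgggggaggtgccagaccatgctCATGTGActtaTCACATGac
Overlapping matches on both strands are marked as 1 run.

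The next stretches show the E-box with 8 bases on each side where the window allows. Ctsa, Ctsd, Cln3, Mcoln1, Lamp1 and Gla hold TCACGTG and did not pass the test. Ctsf and Ctsl hold CACGTG without the leading T. Grn holds TCACATG. Capitals mark these letters on either strand.
Ctsa, chr2:164833752-164833774, plus strand: gcaaactgTCACGTGAtgcagat
Ctsd, chr7:142388058-142388077, minus strand: tccccCACGTGAcctgtatc
Cln3, chr7:126583371-126583393, minus strand: ccctcaagCACGTGAtggaaggc
Mcoln1, chr8:3500439-3500461, plus strand: cgcgcttgTCACGTGttcagttc
Lamp1, chr8:13159091-13159113, plus strand: gcaagataTCACGTGgtccagcg
Gla, chrX:134601219-134601241, minus strand: gcgattgaTCACGTGAgcatcta
Ctsf, chr19:4855078-4855099, plus strand: ccgtggtcCACGTGcctcgcgt
Ctsl, chr13:64370743-64370764, minus strand: ttagaagcCACGTGctgatcta
Grn, chr11:102430288-102430310, plus strand: ttctctaaTCACATGatccctag
These letters are matches in a window and not measured binding sites.

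Smarca4, the gene of Brg1, had signals of 652.1 and 621.5 on the knockdown arrays, against 1186.6 and 1213.6 on the control arrays. The log2 difference was -0.89 ± 0.08 (SE), with an adjusted p of 0.000232 from limma. Slc2a4 lay below the signal level and was not tested, at 20.9 and 23.9 in the knockdown against 11.7 and 19.2 in the control. The arrays had median signals of 49.5 and 50 in the knockdown and 46.6 and 48.2 in the control. Hybridisation spike-ins averaged 9.44 and 9.14 log2 signal on the knockdown arrays, against 9.67 and 9.57 on the control arrays, and the scale can also be set by them. That scaling put the median difference of all genes tested at 0.33 in place of 0.04, so directions below are relative to the deposited scale. Of 12 ES cell marker genes, 11 reached the signal level.

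Of the 56 genes tested, 9 rose and 3 fell in the Brg1 knockdown, and the remaining 44 did not pass (limma with Benjamini-Hochberg adjustment over all 7815 genes tested, threshold 0.05). That is 21.4% called, against a background of 14.4% of all genes tested. With the spike-in scaling 13 were higher and 0 lower. On the deposited scale the rises were 16.1% of the 56, against 9.33% of all genes, and the falls 5.36% against 5.09%. Whether these shares differ from the background was not tested. The median log2 difference of the 56 genes, knockdown minus control, was 0.10, and that of all genes tested was 0.04. In 37 of the 56 (66.1%) the arrays of the groups did not overlap, where 60.2% of all genes tested showed this. Both knockdown arrays lay above both control arrays in 24 (background 34.3%) and below them in 13 (background 25.9%). At an unadjusted p under 0.05 the count was 17, with a background of 31.3%. The rises include the beta- and alpha-mannosidase genes Manba and Man2b1, at 2.95-fold and 2.86-fold, and Tfeb itself. In bulk RNA, fewer cells of a type and less RNA per cell cannot be told apart. Marker lists of other cell types also moved: of 12 trophectoderm genes 5 were tested and 3 rose, and the list summed to 1500.4 to 1602.4 units in the knockdown and 950.5 to 995.1 in the control. Of 12 primitive or visceral endoderm genes 3 were tested, of which 1 rose (Foxa2) and 1 fell (Lrp2), with sums of 495.1 to 532.6 in the knockdown and 541.3 to 573 in the control. Such sums rest mostly on bright genes. Lrp2 had means of 237.25 in the knockdown and 317.05 in the control, and Krt8 of the trophectoderm list 737.55 and 349.15. Genes too dim to be tested went both ways. In the endoderm list Afp, Gata4, Sox7 and Sox17 had both knockdown arrays above both control arrays, and Gata6 had them below. In the trophectoderm list Cdx2, Elf5 and Krt7 had them above, and Ascl2 and Tead4 below. The arrays of the groups overlapped in the other dim genes of these lists. Of the 11 tested ES cell markers 4 rose and 0 fell (at an unadjusted p under 0.05, 5 were higher and 1 lower, Sox2 at -0.22). Their part in the results was not tested.

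**Figure D1:**
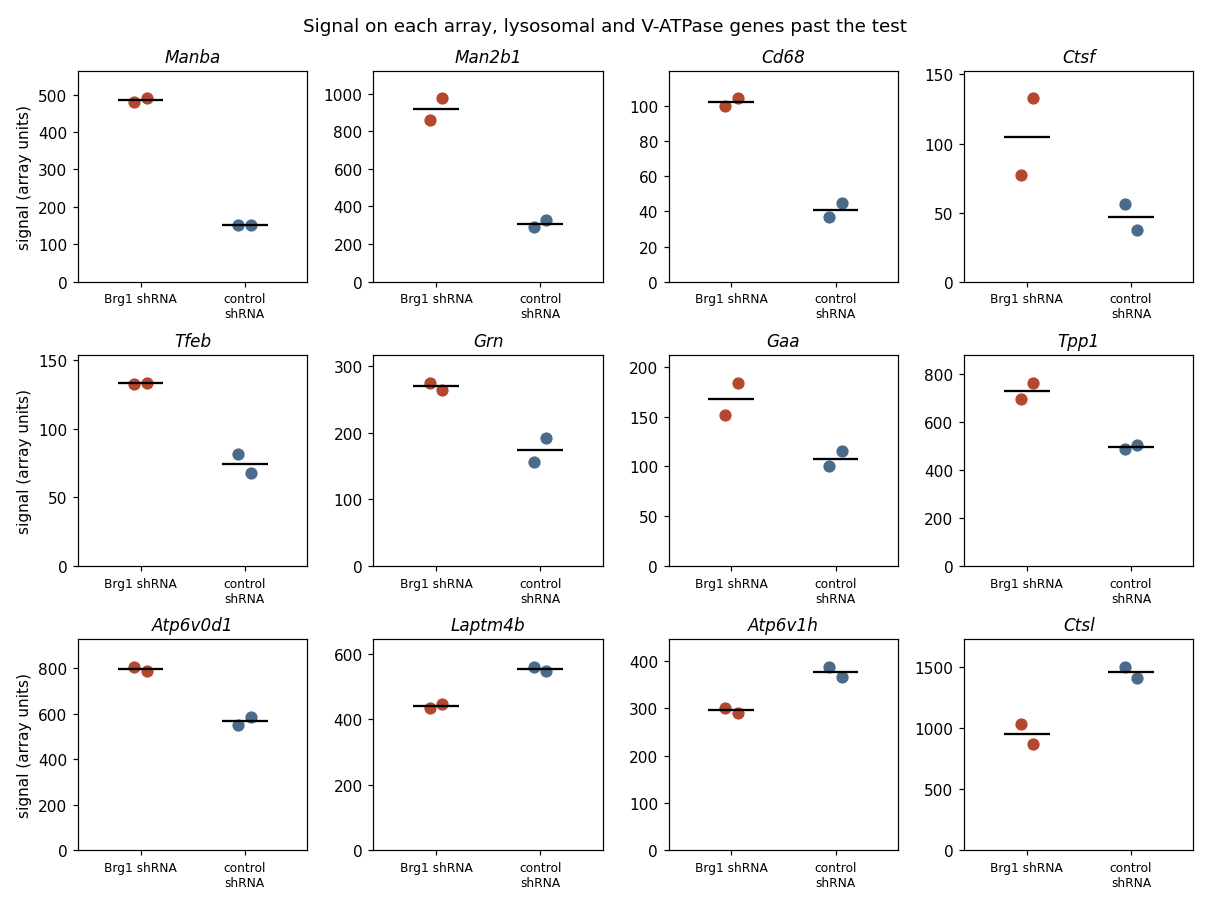
Signal of the 12 genes past the test on each array, in array units from 0, with the Brg1 knockdown left of the control. Points are single arrays and bars the means of 2. In the 9 genes that rose both knockdown arrays lie above both control arrays, and in Laptm4b, Atp6v1h and Ctsl both lie below.

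Among the hydrolases that take glycans apart, 3 of 14 tested rose and 0 fell, against a background of 9.33% higher and 5.09% lower. At an unadjusted limma p under 0.05 the counts were 4 higher and 0 lower, against 1497 higher and 949 lower of all 7815 genes tested. Whether these shares differ was not tested. Manba, the beta-mannosidase that cleaves the last mannose bond of glycoprotein glycans, had signals of 479.5 and 489.9 in the knockdown, against 150.5 and 152.1 in the control. The groups were far apart and the arrays of each group were close together. Manba rose by 1.56 ± 0.10 (SE) on the log2 scale, 2.95-fold with the pseudocount of 20 units (limma, adjusted p = 3.23e-05). Man2b1, the lysosomal alpha-mannosidase, had 859.8 and 974.3 in the knockdown, against 288.3 and 325.7 in the control. It rose by 1.52 ± 0.10 or 2.86-fold (adjusted p = 3.91e-05), and neither group's array came near the other group's. A second Man2b1 probe set gave 115.2 and 128.3 in the knockdown, against 54.4 and 40.7 in the control, a log2 difference of 1.08 (limma adjusted p = 0.00523 when each probe set was tested alone). Manba has a single probe set.

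Gaa, the acid alpha-glucosidase that degrades glycogen, had 151.2 and 184.2 in the knockdown, against 100.1 and 115.2 in the control. It rose by 0.55 ± 0.14 (limma, adjusted p = 0.0256), and its second probe set gave 0.66. Gaa no longer passed when knockdown replicate 2 was left out (adjusted p = 0.129), nor when control replicate 1 was (0.0891).

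The other 11 glycan hydrolases did not pass. Glb1, the beta-galactosidase, came nearest with 204.3 and 205.7 in the knockdown, against 141.6 and 166.0 in the control (log2 difference 0.38, 95% interval 0.11 to 0.64, limma adjusted p = 0.0600). Glb1 passed without control replicate 2 (0.48, adjusted p = 0.0468) and with the spike-in scaling (adjusted p = 0.0214). Sgsh (0.39) and Galc (0.30), with knockdown means of 31.95 and 29.4 units against control means of 19.5 and 20.1, had knockdown arrays above both control arrays but dim signals. Gusb (-0.23), Gla (-0.25) and Neu1 (-0.29) had both knockdown arrays below both control arrays. For Gusb, the beta-glucuronidase, a dimmer probe set gave 103.9 and 107.5 in the knockdown, against 150.8 and 162.5 in the control, a log2 difference of -0.49 (limma adjusted p = 0.0412 when each probe set was tested alone). Hexa, Arsa, Idua, Ids and Galns had log2 differences between 0.10 and 0.20, and Naglu was too dim to be tested.

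Of 9 tested proteases, 2 rose, 1 fell and 6 did not pass, against a background of 9.33% higher and 5.09% lower. Ctsl, the cysteine protease cathepsin L, had 1033.5 and 871.0 in the knockdown, against 1504.5 and 1411.5 in the control. Its log2 difference was -0.61 ± 0.09 (limma, adjusted p = 0.00347), the largest fall of the 56 genes. Scaled to the spike-ins, the Ctsl difference was -0.28 (adjusted p = 0.305). Tpp1, the tripeptidyl peptidase lost in a childhood neuronal ceroid lipofuscinosis, had 698.5 and 765.4 in the knockdown, against 489.1 and 503.4 in the control. Both knockdown arrays lay well above the control arrays, and Tpp1 rose by 0.54 ± 0.09 (adjusted p = 0.00453), with 0.64 in its second probe set.

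Ctsf, cathepsin F, had 77.0 and 132.7 in the knockdown, against 56.5 and 37.7 in the control. Its knockdown arrays differed from each other by more than the lower of them did from the control. It rose by 0.87 ± 0.22 (limma, adjusted p = 0.0298). Without knockdown replicate 2 the Ctsf difference was 0.55 (adjusted p = 0.126), and the call was also lost without control replicate 2 (adjusted p = 0.0720) or without the intensity trend (0.0680).

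The aspartic protease Ctsd, the cysteine proteases Ctsb, Ctsc and Ctsz, the carboxypeptidase Ctsa and the asparaginyl protease Lgmn had log2 differences between -0.16 and 0.10. For Ctsd the 95% interval was -0.10 to 0.29, so a change the size of that of Tpp1 lies outside it. Ctsh and Ctss, at 16.3 units or less on every array, were not tested.

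Of the 6 genes that act on lipids and phosphates, 0 passed the test (background 14.4%), and 1 had an unadjusted p under 0.05 (background 31.3%). That was Psap, the precursor of the saposin activators of sphingolipid breakdown, with 289.1 and 299.9 in the knockdown, against 248.0 and 251.5 in the control (log2 difference 0.22, limma adjusted p = 0.158). Ppt1, a palmitoyl-protein thioesterase, had a log2 difference of 0.25 and Gm2a, the activator of GM2 ganglioside breakdown, of 0.19. Lipa, the acid lipase, was at -0.30, the acid ceramidase gene Asah1 at -0.13 and the acid phosphatase gene Acp2 at 0.05. The arrays of the groups did not overlap in 5 of the 6, a state that 60.2% of all genes tested shared.

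Among 12 membrane, sorting and other proteins, 2 rose, 1 fell and 9 did not pass (background 9.33% higher and 5.09% lower). Cd68, a glycosylated protein of the LAMP family best known from macrophages, had 100.1 and 104.2 in the knockdown, against 36.7 and 44.7 in the control. It rose by 1.01 ± 0.14 or 2.02-fold (limma, adjusted p = 0.00225). Of 11 genes on a macrophage marker list, Csf1r alone reached the signal level, with 34.7 and 56.1 in the knockdown against 47.6 and 32.5 in the control, and it did not pass the test. The list summed to 108.9 to 199.3 units in the knockdown and 81.8 to 137.2 in the control. The other 10 were too dim to be tested, and 9 of the 11 lay below the signal level on all arrays. Adgre1 was the brightest of these 10, with 7.0 and 32.3 in the knockdown against 6.6 and 11.4 in the control. Lyz2 (14.5 and 18 in the knockdown, 7.1 and 9.0 in the control) and Aif1 (5.9 and 7.8 in the knockdown, 2.0 and 1.2 in the control) had both knockdown arrays above both control arrays. Ptprc, at 2.9 and 9.6 in the knockdown against 6.5 and 8.8 in the control, overlapped. Of 11 fibroblast marker genes 2 reached the level, and their list summed to 222.4 to 258.7 units in the knockdown and 209.1 to 209.9 in the control. The part of either cell type in the rise of Cd68 was not tested.

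Grn, the precursor of the granulins, had 275.6 and 263.7 in the knockdown, against 156.3 and 191.5 in the control. It rose by 0.58 ± 0.12 (limma, adjusted p = 0.0121), and its other probe sets gave 0.41 and 0.39. Without control replicate 1 the Grn difference was 0.45 (adjusted p = 0.0503). Laptm4b, a lysosomal transmembrane protein, had 434.7 and 446.0 in the knockdown, against 561.0 and 546.4 in the control. It fell by 0.32 ± 0.09 (limma, adjusted p = 0.0394). The call of Laptm4b was lost without each array in turn (adjusted p from 0.0788 to 0.129), and its difference was -0.00036 with the spike-in scaling. Its other probe sets gave -0.38 and -0.78 (limma adjusted p = 0.0392 and 0.0307 when each probe set was tested alone). The probe set used for the gene did not pass in that test (0.0603).

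The general lysosomal membrane proteins showed small differences. Lamp1 had 2005.1 and 2046.3 in the knockdown, against 1773.1 and 1922.7 in the control, a log2 difference of 0.13 (95% interval -0.03 to 0.30, limma adjusted p = 0.248). Lamp2 was at -0.11, Scarb2, the receptor that carries glucocerebrosidase, at 0.21, and Laptm4a at 0.18. The cholesterol exporters Npc1 and Npc2 were at -0.04 and 0.06, and M6pr, a sorting receptor for hydrolases, at -0.05. Cln3 (0.38, adjusted p = 0.0698) and the calcium channel gene Mcoln1 (0.32, adjusted p = 0.180) had both knockdown arrays above both control arrays without passing the test. Cln3 passed without knockdown replicate 1 (0.49, adjusted p = 0.0396), and both passed with the spike-in scaling (adjusted p = 0.0212 for Cln3 and 0.0401 for Mcoln1).

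Tfeb had 133.0 and 133.8 in the knockdown, against 81.4 and 67.9 in the control. The knockdown arrays were nearly equal and lay above both control arrays. Tfeb rose by 0.70 ± 0.13 on the log2 scale, 1.62-fold (limma, adjusted p = 0.00872). The call was kept without each array in turn, and the adjusted p was 0.0501 when all 12393 genes entered the test. The arrays measure Tfeb RNA and not the nuclear entry through which its activity is known to be set.

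Of 14 tested V-ATPase genes, 1 rose, 1 fell and 12 did not pass, or 14.3% called against the background of 14.4%. Their median log2 difference was -0.01. Atp6v0d1, the d subunit of the V0 sector, had 806.5 and 789.4 in the knockdown, against 548.2 and 587.3 in the control. It rose by 0.48 ± 0.08 (limma, adjusted p = 0.00652), with the groups clear of each other. Atp6v1h, the regulatory H subunit of V1, had 301.8 and 289.6 in the knockdown, against 388.3 and 366.2 in the control. It fell by 0.33 ± 0.10 (limma, adjusted p = 0.0470). That call was lost without each array in turn (adjusted p from 0.0730 to 0.182), and the Atp6v1h difference was -0.02 with the spike-in scaling.

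Atp6v0a1, an a subunit of V0, had 132.1 and 156.9 in the knockdown, against 79.0 and 111.7 in the control. Its log2 difference of 0.52 ± 0.16 was larger than that of Atp6v0d1 but did not pass (limma, adjusted p = 0.0557), and its dimmer probe sets gave 0.26 and 0.14. It passed without knockdown replicate 1 (difference 0.63, adjusted p = 0.0352) or control replicate 2 (0.73, adjusted p = 0.0113). The other V0 genes Atp6v0e2, Atp6v0b, Atp6v0e and Atp6v0a2 lay between -0.12 and 0.22.

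Atp6v1a and Atp6v1b2 encode the A and B subunits that form the ATP-splitting head of V1, with the catalytic site on A, and neither gene passed the test. Atp6v1a had 619.5 and 662.1 in the knockdown, against 589.8 and 641.1 in the control, a log2 difference of 0.06 (95% interval -0.14 to 0.26). Atp6v1b2 was at 0.11 (95% interval -0.12 to 0.34), with arrays that overlapped. Atp6v1d (0.11), Atp6v1c1 (-0.03), Atp6v1e1 (-0.05) and Atp6v1g1 (-0.10) did not pass either. Atp6v1g1 was at -0.50 (adjusted p = 0.0316) when the median of its probe sets other than _x_at and _s_at ones was used. On every array that median was the value of a single probe set, which did not pass when tested alone (limma adjusted p = 0.0517). Atp6v1f had 1112.2 and 1080.9 in the knockdown, against 1356.5 and 1209.4 in the control, a log2 difference of -0.22 (limma, adjusted p = 0.104). Atp6v0a4, Atp6v1b1, Atp6v1c2, Atp6v1e2 and Atp6v1g2, at 18.4 units or less on every array, were not tested.

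**Figure D2:**
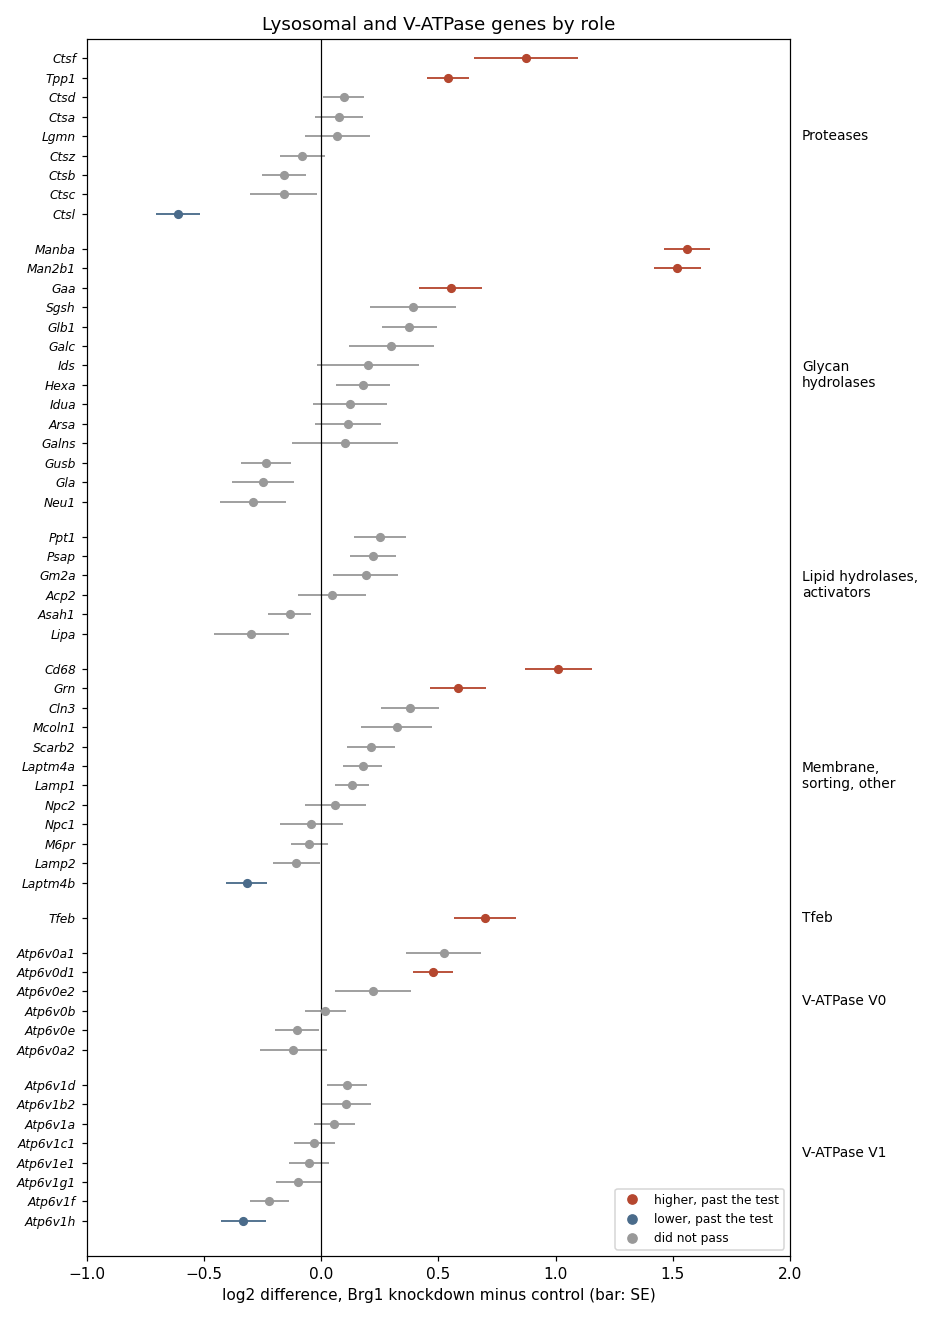
Log2 difference, Brg1 knockdown minus control, of the 56 tested genes by role, with bars of 1 standard error from limma. Manba (1.56) and Man2b1 (1.52) stand to the right of all others, while the V1 genes lie between -0.33 and 0.11.

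Of the 120 probe sets, 94 reached the signal level and 17 passed when every probe set was tested by itself, 13 higher and 4 lower. That is 18.1%, against 9.13% of all 13576 probe sets tested this way. These 17 belong to 11 genes, and no gene had probe sets called in opposite directions. The 11 include Gusb, which did not pass in the test by gene. Ctsf (limma adjusted p = 0.0502) and Atp6v1h (0.0696), called in the test by gene, had no probe set that passed by itself. Of 27 genes with several tested probe sets, Man2b1, Gaa, Tpp1 and Grn had every tested probe set called higher. Atp6v1d and Lamp2 had probe sets on both sides of 0, from -0.37 to 0.31 and from -0.34 to 0.22, with none called. Atp6v1g1 gave -0.10 and -0.50.

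**Figure D3:**
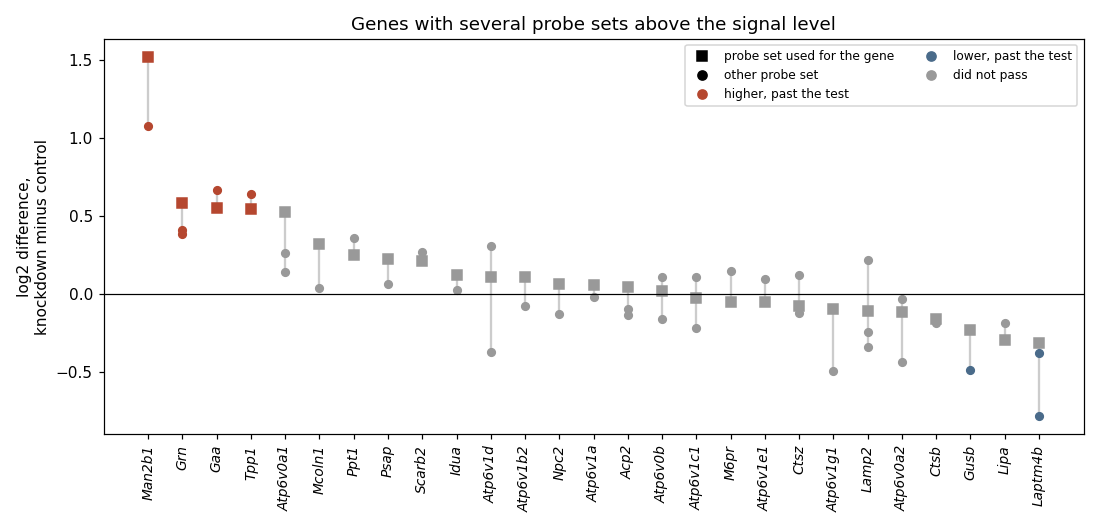
Log2 difference, knockdown minus control, of each tested probe set in the 27 genes with several. Squares are the probe sets used for the gene and circles the others, coloured where past the test. The probe sets of Man2b1 (1.52 and 1.08) lie together above 0 and those of Laptm4b (-0.32, -0.38 and -0.78) below it.

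The promoter windows of the lysosomal genes held the CLEAR core often. TCACGTG, searched on both strands, was in 16 of their 59 windows (27.1%), against 1237 of 32851 windows in all (3.77%). The shorter CACGTG, which every TCACGTG contains, was in 18 windows (30.5%, against 7.15%), and TCACATG was in 8 (13.6%, against 3.99%). GGGCGG was in 38 (64.4%, against 35.7%). Of 32 tested genes with GGGCGG 6 rose and 0 fell, and of 13 without it 3 rose and 1 fell. The background for these counts is 9.33% higher and 5.09% lower, and the split was not tested. Among the genes tested, 15 had TCACGTG in a window, and of these Atp6v0d1 and Gaa rose and none fell at the threshold. Of 30 tested genes without it, 7 rose and 1 fell (background 9.33% higher and 5.09% lower). Laptm4b and Atp6v1h, which fell, had no promoter window and are counted on neither side. The median log2 difference was 0.12 with TCACGTG and 0.18 without, a description with no test. Manba, Man2b1, Cd68 and Tfeb, 4 of the 5 largest rises, had neither TCACGTG nor CACGTG in these windows, and Ctsf had CACGTG. The letters say nothing of starts or elements outside the window.

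**Figure D4:**
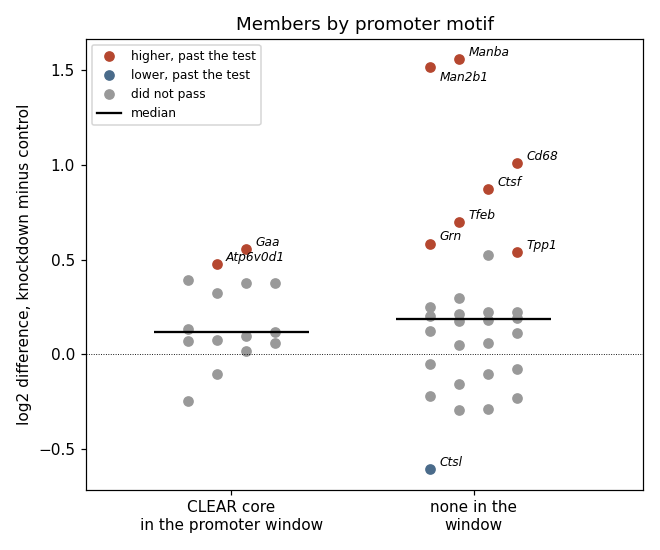
Log2 difference, knockdown minus control, of the 45 tested genes with a promoter window, split by whether a window holds the CLEAR core, with the median of each side as a line. The genes with the core lie between -0.25 and 0.55, and the highest values, Manba and Man2b1, are on the other side.

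Other genes of the pathway were taken from 5 lists: further hydrolases, further membrane proteins and transporters, delivery to lysosomes, the TFEB family with mTORC1 regulators, and autophagy. Of their 100 tested genes, 13 rose and 0 fell (13% called, background 14.4%, made up of 9.33% higher and 5.09% lower). These shares are also the background for each list below. At an unadjusted limma p under 0.05 the counts were 30 higher and 4 lower, against 1497 higher and 949 lower of all 7815 genes tested. Whether the lists differ from the background was not tested. With the spike-in scaling 26 passed.

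Autophagy genes made up 6 of the 13 rises, among 27 tested, and 0 fell (background 9.33% higher and 5.09% lower). Sqstm1, the cargo receptor p62, had 861.5 and 967.3 in the knockdown, against 537.0 and 518.6 in the control. It rose by 0.77 ± 0.09 (limma, adjusted p = 0.000780). Ulk1, the kinase that starts autophagy, had 314.8 and 308.7 in the knockdown, against 189.4 and 190.4 in the control, and rose by 0.66 ± 0.10 (limma, adjusted p = 0.00324). In both genes the groups were clear of each other. Gabarapl2, of the ATG8 family, rose by 0.59. Atg16l1, part of the ATG8 conjugation machinery, rose by 0.53, but did not pass when knockdown replicate 2 (adjusted p = 0.0718) or control replicate 1 (0.101) was left out.

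Of 15 further hydrolases 2 rose, the carboxypeptidase gene Scpep1 (0.50, adjusted p = 0.00491) and the amidase gene Naaa (0.67, adjusted p = 0.0249). Naaa lost its call without knockdown replicate 2, control replicate 1 or control replicate 2 (adjusted p from 0.0680 to 0.108). Of 18 further membrane proteins 2 rose, the lysolipid transporter gene Spns1 (0.52) and Sidt2 (0.59). The V-ATPase accessory genes Atp6ap1 and Atp6ap2, outside the naming rule and chosen after their values were seen, were at 0.01 and 0.002.

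Of 22 delivery genes 2 rose, Vps11 of the HOPS tethering complex (0.57, adjusted p = 0.0124) and Ap3d1 of the AP-3 adaptor (0.34, adjusted p = 0.0379). Without control replicate 1 the adjusted p of Vps11 was 0.0514, and Ap3d1 did not pass with any 1 array left out (0.0565 to 0.168). Ap3d1 also lost it with median centring (0.0610). Of 18 genes in the TFEB and mTORC1 list 1 rose, Flcn, which acts on the Rag GTPases at the lysosome (0.44, limma adjusted p = 0.0359). Flcn lost its call without knockdown replicate 1 (0.110), knockdown replicate 2 (0.0504) or control replicate 1 (0.143). Mitf, a relative of Tfeb chosen after its values were seen, was at 0.03.

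Of the 12 genes called, Manba, Man2b1, Tpp1, Cd68 and Atp6v0d1 passed under each alternative that could test them, including each array left out. Across these alternatives the log2 difference lay between 1.41 and 1.86 for Manba, 1.30 and 1.83 for Man2b1, 0.48 and 0.86 for Tpp1, 0.75 and 1.26 for Cd68, and 0.43 and 0.80 for Atp6v0d1.

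**Figure D5:**
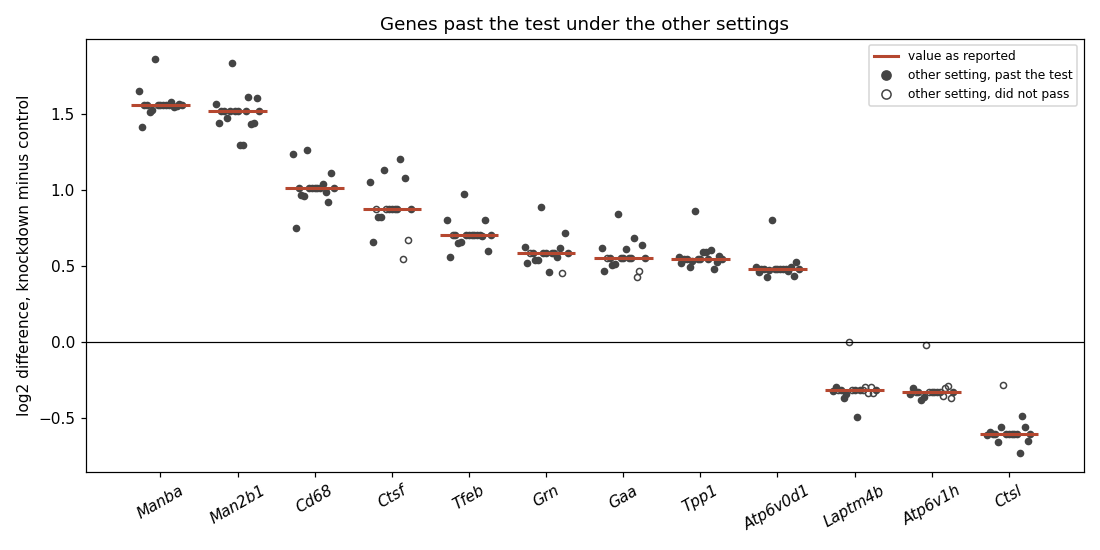
Log2 difference, knockdown minus control, of the 12 genes past the test (red lines) and under the other settings (circles, filled where the adjusted p stayed under 0.05). The 9 rises stay above 0 under every setting drawn, and Laptm4b and Atp6v1h have open circles with each array left out.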

How the data were processed

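The 4 arrays gave 1 intensity per probe set on a linear scale, deposited by the authors and made with GCOS, the Affymetrix software, per the submitters' processing notes. The sources used here name no version, signal algorithm or scaling target. The mean without 2% of values at each end was 200.1 on every array, so the deposited intensities share a scale. Detection calls were not used here, and the number of arrays limits the precision.

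Of 22690 probe sets, 64 were controls, and 20380 had 1 gene, 691 several and 1555 none in the platform annotation. The RefSeq table of GRCm38.p6 gave current symbols for 20351 of the 20380, matched by Entrez ID. Values were analysed as log2(signal + 20), which understates changes of dim genes. Each gene was read by its probe set of highest mean log2 value, _x_at ones only where no other existed. The 7815 genes with a mean at or above the 40th percentile of probe sets were tested with limma 3.58.1 (R 4.3.3, lmFit, eBayes with intensity trend, two-sided, Benjamini-Hochberg). With 2 arrays against 2, an exact permutation test of a single gene cannot go below p = 0.333, so none was used. In simulated arrays for this comparison with 7815 genes, 81% of changes of 0.5 log2 units and 100% of changes of 1 were recovered, with 4 false calls. The simulated noise was normal, with a spread set by signal level alone, and 100 genes changed at each size. Differences in spread between genes of 1 signal level were left out. The spread was smoothed on a log scale, which can set it too low and the recovery too high. These figures may thus not hold for the real arrays.

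Named were the shRNA targets, every member past the test, Tfeb, of the other members the 10 of highest signal and any with a difference of 0.5 or more, and up to 4 called genes of each related list. Any further member could be named too. The members, lists and tests were chosen with earlier results of these data known. Alternatives changed the pseudocount, filter, normalization, variance model, probe set, threshold and block, and left out each array.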

Additional observations from a re-analysis of the deposited data

How the results depend on the processing

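Of the named genes' values under the alternatives, crossed block aside, 491 kept their direction and side of the threshold, 54 no longer passed, 6 newly passed and 19 turned. Without the filter on dim genes, 433 genes passed, with 6 lysosomal genes (5 higher, 1 lower) among them. The counts were 1 for V-ATPase genes, 5 for other lysosomal genes, 8 for lysosomal probe sets and 6 for related genes. In that setting the variance model was refitted with the dim genes included, and the adjustment ran over 12393 genes. The share of each in the lower counts was not tested. At an adjusted p under 0.01 the counts were 393, 7 (1 lower), 1, 6, 5 and 5. Without the intensity trend 1 lysosomal gene was lower, 1 V-ATPase gene passed and 9 probe sets did. With the spike-in scaling 13 lysosomal genes were higher, with Atp6v0a1, Cln3, Glb1 and Mcoln1 gained, 0 were lower, 26 related genes passed and the lysosomal median was 0.39. The median was 0.055 with median centring, and averaging a gene's probe sets gave 0.063, with Glb1 (adjusted p = 0.0427) and Gusb (0.0387) then passing. Leaving out 1 array each gave 601 to 1171 genes, 8 to 12 lysosomal genes (7 to 11 higher and 1 lower), 1 to 2 V-ATPase genes, 7 to 10 other lysosomal genes, 9 to 18 probe sets, 8 to 15 related genes and a median of 0.065 to 0.14; the low ends came without knockdown replicate 2 or control replicate 1. A group left with 1 array is assumed to vary like the other.

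Same-numbered arrays had only a weak tendency to deviate in opposite directions (r = -0.14 across 7815 genes, which are not independent). The labels do not say that a number pairs samples. With the replicate block 11 lysosomal genes passed, 10 higher and 1 lower: Laptm4b (adjusted p = 0.0579) and Atp6v1h (0.0650) did not pass, and Atp6v0a1 did (0.0226). A crossed replicate block, added after seeing the data, gave 14 lysosomal genes, 1478 genes in all and 23 related genes. The cause of these shifts was not tested.

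Directions that turned were all of genes that did not pass. With the spike-in scaling Atp6v1f was at 0.10, M6pr 0.27, Atp6v0e 0.22, Atp6v1e1 0.27, Atp6v1g1 0.22 and Atp6v1c1 0.29. With the mean and the median of probe sets Atp6v1b2 was at -0.075 and -0.074, Npc2 at -0.036 and -0.036, and M6pr at 0.047 and 0.047, and with the median Atp6v1c1 was at 0.11. With 1 array left out, Atp6v1b2 ranged from -0.057 to 0.27, Npc2 from -0.13 to 0.25, Atp6v1e1 from -0.12 to 0.016, Atp6v1g1 from -0.20 to 0.0017 and Atp6v1c1 from -0.11 to 0.058.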
